A study of Mus musculus with 8 samples.

Results

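The 9 genes described here are read-outs of epithelial-mesenchymal transition (EMT): the transcription factors *Snai1*, *Snai2*, *Twist1*, *Zeb1* and *Zeb2*, the cadherins *Cdh1* and *Cdh2*, the intermediate filament gene *Vim* and the matrix gene *Fn1*. They were chosen by symbol, and all 9 were found among the 23467 genes of the table. RNA of mouse hepatoblasts, taken from E14.5 fetal liver and cultured on collagen (iHB), was sequenced in 1 control library and 1 library labelled L1L2_Alb. Hepatoblasts led towards hepatocytes (iHP) with 12.5 ng/ml oncostatin M, for 5 days by the labels, gave 1 control library and 2 labelled L1L2_Alb. Hepatoblasts led towards biliary epithelial cells (iBEC) on Matrigel for 14 days gave again 1 control library and 2 labelled L1L2_Alb. Controls were labelled wild type, L1L2_Alb cells Lats1-/-;Lats2f/fl;Alb-cre, and all 8 libraries B6;129 mixed. Under that label *Lats1* would be missing from every cell, whereas *Lats2* can be deleted only in cells where the albumin promoter has driven Cre. The cultures started from all cells of digested livers after lysis of red blood cells, and the methods describe no sort, so other liver cells could be carried along. Neither the labels nor the methods state whether the libraries came from different embryos. The p-values thus measure only the spread between these libraries, which may be technical. For genotype, that spread includes how far the difference varied between the stages, since no control was repeated within a stage.

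LATS1 and LATS2 are kinases of the Hippo pathway that hold back the co-activators YAP and TAZ. In EMT, epithelial cells lose the junctions that E-cadherin (*Cdh1*) builds and gain N-cadherin (*Cdh2*), vimentin and fibronectin, and the SNAI, ZEB and TWIST factors are known to repress *Cdh1* or to favour the mesenchymal state. Liver is a special case among epithelia, because hepatocytes carry both cadherins and secrete fibronectin into plasma, and because fibroblasts, stellate cells and mesothelium of the same organ express vimentin and the EMT factors without any transition.

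Levels are given in RPKM as deposited, that is, reads scaled by the length of the gene and the size of the library. Differences are on the scale of log2(RPKM + 1). The depth was 18436865 to 33229075 reads per library. *Lats1* was at 5.38 to 11.2 RPKM in the control libraries and at 7.12 to 22.7 RPKM in the libraries labelled L1L2_Alb, and *Lats2* at 6.90 to 10.1 against 10.9 to 27.6 RPKM, so the RNA of neither gene was lower under the label, and genotypes are given as labelled throughout. Such values per gene do not show whether the floxed exons were present. *Alb*, the marker of the hepatocyte lineage, was at 2485 to 6162 RPKM in the control libraries and at 524 to 5499 RPKM in those labelled L1L2_Alb. It was lower than the control of its stage in 5 of 5 L1L2_Alb libraries.

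Across the 3 stages, *Vim* and *Cdh2* were higher and *Fn1* was lower in the libraries labelled L1L2_Alb, while *Cdh1* and the 5 transcription factors did not pass the test. *Vim* rose by 1.26 ± 0.24 (SE) on the log2 scale, *Cdh2* by 0.90 ± 0.22, and *Fn1* fell by 1.54 ± 0.25, each in the same direction in 5 of 5 L1L2_Alb libraries. The adjusted p from limma, with the stage in the model, was 0.0167 for *Vim*, 0.0378 for *Cdh2* and 0.010 for *Fn1*. In the same comparison 6.20% of the 13421 genes tested passed as higher and 3.37% as lower, against 2 higher and 1 lower of the 9 genes here. That background was 832 genes higher and 452 lower, but 612 and 575 with upper-quartile scaling, 687 and 606 with quantile normalization, and 675 and 1020 without control iBEC. For these 3 genes the levels of the 5 L1L2_Alb libraries did not overlap with those of the 3 controls, which was so for 9.18% of all genes tested in the upward and 3.70% in the downward direction. The median difference of all genes tested was 0.06. Each of the 3 calls was lost without control iHB (adjusted p of 0.0858 for *Vim*, 0.175 for *Cdh2* and 0.0542 for *Fn1*), without L1L2_Alb iHB (0.0862, 0.175 and 0.0581) and without control iHP (0.163, 0.248 and 0.110). All 3 calls held without control iBEC (0.0399 for *Vim*, 0.048 for *Cdh2* and 0.0118 for *Fn1*). With the stage in the model, a stage left with only 1 genotype adds nothing to the fitted difference. Leaving out either iHB library thus gave the same differences (1.29 for *Vim*, 0.83 for *Cdh2* and -1.61 for *Fn1*), and these are not separate checks. Without control iHP or control iBEC, that whole stage drops out of the difference.

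**Figure D1:**
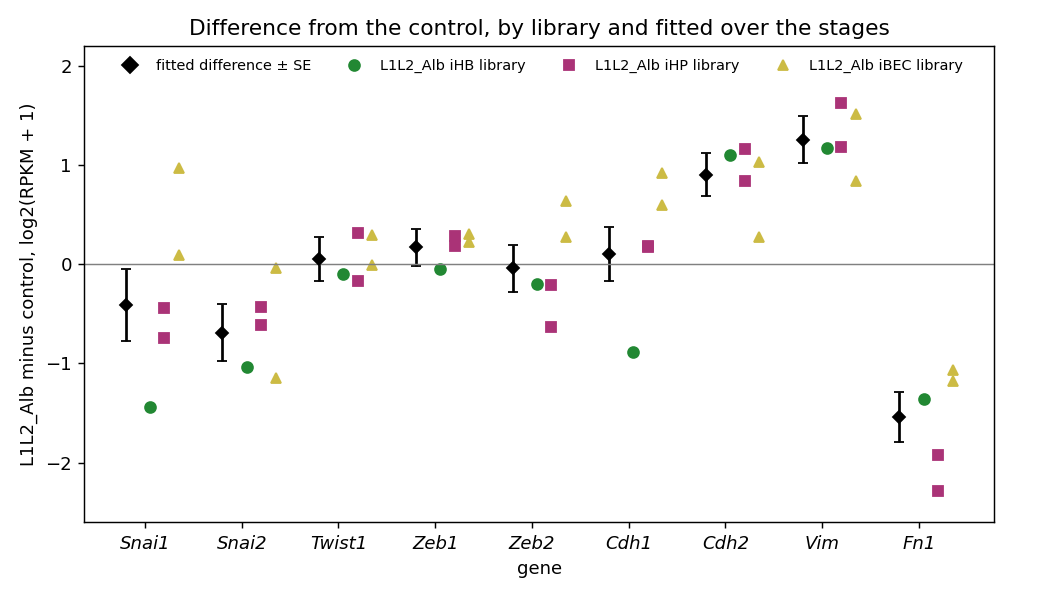
Difference between L1L2_Alb and control for each of the 9 genes, on the log2(RPKM + 1) scale; black diamonds are the differences fitted over the 3 stages with their SE, and coloured symbols are the 5 L1L2_Alb libraries, each against the 1 control library of its stage. All 5 libraries lie above 0 for *Cdh2* and *Vim* and below 0 for *Fn1* and *Snai2*, whereas *Snai1*, *Zeb1*, *Zeb2*, *Twist1* and *Cdh1* have libraries on both sides.

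*Snai1*, a zinc-finger repressor that binds E-boxes in the *Cdh1* promoter, had 9.44 RPKM (control) and 2.86 RPKM (L1L2_Alb) in iHB, 5.90 RPKM (control), 3.11 and 4.08 RPKM (L1L2_Alb) in iHPs, and 8.46 RPKM (control), 17.5 and 9.10 RPKM (L1L2_Alb) in iBECs. It was thus lower than the control in all L1L2_Alb libraries of iHB and iHP, and higher in both of iBEC, one of which stood far above the other 7 libraries. These levels rested on 91 to 718 reads. The fitted genotype difference was -0.42 ± 0.36 (adjusted p = 0.527). *Snai1* is known to bind its own promoter, and an E-box lies there. The 250 bases before its start, at chr2:167537945-167538194 on the plus strand of GRCm38.p6 as RefSeq gives them, hold the letters CACCTG once, from 126 bases before the start, shown in capitals.
Snai1: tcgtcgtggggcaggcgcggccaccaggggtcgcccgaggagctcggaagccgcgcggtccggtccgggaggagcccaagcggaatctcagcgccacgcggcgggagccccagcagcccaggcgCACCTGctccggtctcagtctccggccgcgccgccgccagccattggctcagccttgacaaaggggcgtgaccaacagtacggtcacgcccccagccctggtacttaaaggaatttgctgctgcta
On either strand, CAGGTG was found in 17.2% of the 32851 windows of this length in that table, and the match is a description of the letters alone.

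*Snai2*, the closest relative of *Snai1* and a mark of neural crest and of many fibroblasts, was the only factor at a lower level than the stage control in 5 of 5 L1L2_Alb libraries. The control and L1L2_Alb levels were 3.60 and 1.25 RPKM in iHB, 2.84 against 1.51 and 1.84 RPKM in iHPs, and 4.64 against 4.48 and 1.54 RPKM in iBECs. The first L1L2_Alb iBEC library was close to its control, and it overlapped with the control range of 2.84 to 4.64 RPKM. The fitted difference was -0.69 ± 0.28, with an unadjusted p of 0.0406 and an adjusted p of 0.168, which did not pass.

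*Zeb1* and *Zeb2* encode large zinc-finger repressors of epithelial genes. *Zeb1* was at 5.22 RPKM in the control and 5.02 RPKM in the L1L2_Alb library of iHB, at 4.42 against 5.17 and 5.62 RPKM in iHPs, and at 3.29 against 4.29 and 4.00 RPKM in iBECs. *Zeb2* was at 10.6 against 9.09 RPKM in iHB, at 6.77 against 5.73 and 4.02 RPKM in iHPs, and at 7.13 against 11.7 and 8.80 RPKM in iBECs. Control and L1L2_Alb levels overlapped for both genes over the 3 stages. The fitted difference was 0.17 ± 0.18 for *Zeb1* (adjusted p = 0.618) and -0.04 ± 0.24 for *Zeb2* (adjusted p = 0.937). *Zeb2* shares exon bases with the antisense gene *Zeb2os*, and without strand in the library kit their reads cannot be told apart.

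*Twist1*, a basic helix-loop-helix factor of mesoderm and neural crest, had the lowest mean level of the 9 genes. Control and L1L2_Alb were at 1.03 and 0.898 RPKM in iHB, at 0.548 against 0.932 and 0.374 RPKM in iHPs, and at 2.05 against 2.75 and 2.03 RPKM in iBECs. All 3 iBEC libraries were above all 5 others, but the share of all genes tested that separate in this way was not counted. Within a stage the genotypes had no common order. Those levels are 79 to 116 reads in iBECs and 13 to 48 reads in the other libraries, and the counting error of so few reads is part of the spread. The fitted difference was 0.05 ± 0.22 (adjusted p = 0.913).

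**Figure D2:**
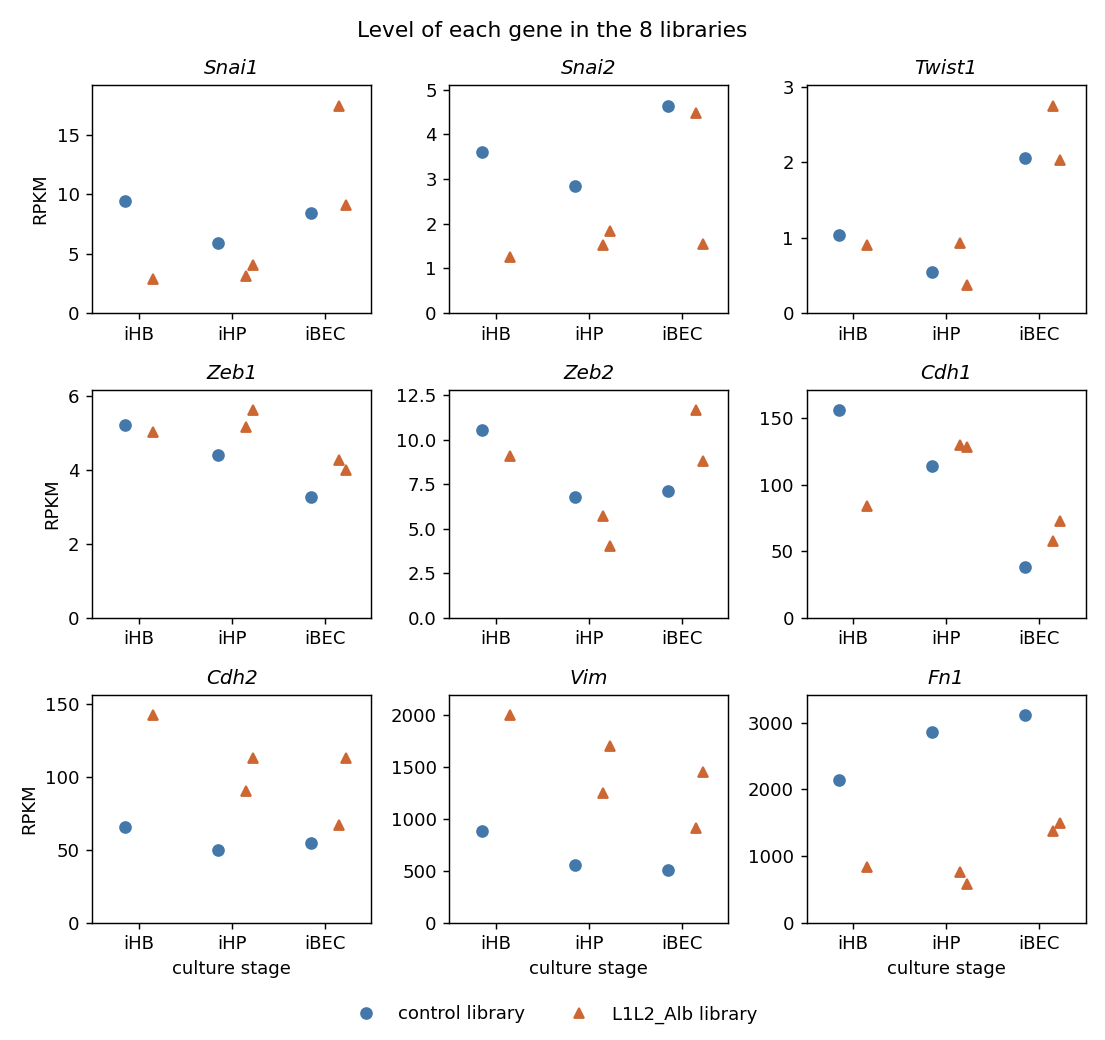
Level in RPKM of the 9 genes, 1 panel per gene with its own axis from 0, by culture stage; circles are control libraries and triangles L1L2_Alb libraries. Control and L1L2_Alb symbols separate over all stages in the *Cdh2*, *Vim* and *Fn1* panels, and the iBEC symbols of *Twist1* lie at 2.03 to 2.75 RPKM.

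*Cdh1*, the cadherin of epithelial junctions, had no common direction over the stages. It had 156 RPKM (control) and 84.1 RPKM (L1L2_Alb) in iHB, 114 RPKM (control), 130 and 128 RPKM (L1L2_Alb) in iHPs, and 37.9 RPKM (control), 57.9 and 72.7 RPKM (L1L2_Alb) in iBECs. The L1L2_Alb library was 0.540 times the control in iHB, 1.14 and 1.13 times in iHPs, and 1.53 and 1.92 times in iBECs. Only the iHB library was therefore lower than its control, and the 2 genotypes overlapped. The median difference of all genes tested was 0.25 in iBECs, beside 0.76 ± 0.23 (SD, n = 2) for *Cdh1*, and 0.07 after upper-quartile scaling. The fitted difference of *Cdh1* was 0.10 ± 0.27 (adjusted p = 0.860). In order of level, control iHB came first, then the 2 L1L2_Alb iHP libraries, control iHP, L1L2_Alb iHB, the 2 L1L2_Alb iBEC libraries and control iBEC. With 1 library in most conditions, neighbours in that order cannot be tested, and the SD of the 2 L1L2_Alb iHP libraries was 0.01 on the log2 scale.

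*Cdh2*, the cadherin of mesenchyme and nerve that hepatocytes also carry, was higher than the stage control in each L1L2_Alb library. Its level was 65.8 RPKM (control) and 142 RPKM (L1L2_Alb) in iHB, 50.0 RPKM (control), 90.4 and 113 RPKM (L1L2_Alb) in iHPs, and 55.0 RPKM (control), 66.9 and 113 RPKM (L1L2_Alb) in iBECs. The lowest L1L2_Alb library, of iBEC, lay just above the highest control library. The call of *Cdh2* was the least stable of the 3: it passed in 5 of 14 alternative fits, with adjusted p from 0.0158 to 0.248, and did not pass with upper-quartile scaling (0.0600), with quantile normalization (0.0657) or with no filter on low values (0.0745). It also failed without either L1L2_Alb iHP library (0.0619 and 0.0594) and without the second L1L2_Alb iBEC library (0.0765).

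The ratio of both cadherins within a library was lower than the control in every L1L2_Alb library of iHB and iHP, but not of iBEC. *Cdh1* was 2.37 times *Cdh2* in control iHB and 0.591 times in L1L2_Alb iHB, and 2.28 times in control iHP against 1.43 and 1.14 times. In iBECs the ratio was 0.689 in the control and 0.866 and 0.642 in the L1L2_Alb libraries, so that the control lay between them. The sum of both cadherins was 221 against 226 RPKM in iHB, 164 against 220 and 241 RPKM in iHPs, and 92.9 against 125 and 186 RPKM in iBECs. These ratios have 1 control library per stage and were not tested.

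*Vim*, a filament protein of mesenchymal cells and of epithelial cells in culture, was among the most abundant RNAs of the 9. It had 886 RPKM (control) and 1999 RPKM (L1L2_Alb) in iHB, 551 RPKM (control), 1249 and 1705 RPKM (L1L2_Alb) in iHPs, and 510 RPKM (control), 912 and 1455 RPKM (L1L2_Alb) in iBECs. Every L1L2_Alb library was 1.79 to 3.09 times its control. In order of level, L1L2_Alb iHB was first, the L1L2_Alb iHP and iBEC libraries followed with ranges that overlapped, and the 3 controls came last. *Vim* passed in 10 of 14 alternative fits, and with no filter on low values its adjusted p was 0.0583. The range of the adjusted p over those fits was 0.0114 to 0.163. The bases before its start are shown because it is the called gene with an entry in RefSeq's promoter table, which held 4 of the 9 genes. They lie at chr2:13574061-13574310 on the plus strand of GRCm38.p6, and no capitals appear, since neither the E-box CAGGTG nor the TEAD motif GGAATG was found on either strand.
Vim: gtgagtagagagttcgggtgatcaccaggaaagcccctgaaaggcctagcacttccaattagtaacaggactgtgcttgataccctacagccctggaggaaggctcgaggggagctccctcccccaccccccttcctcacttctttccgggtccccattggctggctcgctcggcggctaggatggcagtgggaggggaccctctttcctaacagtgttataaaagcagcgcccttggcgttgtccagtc
GGAATG, the letters bound by the TEAD partners of YAP, was present on either strand in 12.6% of all windows of this length. Absence of these letters from 250 bases says nothing of the factors.

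*Fn1*, which encodes both the fibronectin of matrix and that of plasma, was the most abundant of the 9 RNAs in every control library and moved against *Vim*. Its level was 2146 RPKM (control) and 839 RPKM (L1L2_Alb) in iHB, 2859 RPKM (control), 754 and 587 RPKM (L1L2_Alb) in iHPs, and 3113 RPKM (control), 1373 and 1489 RPKM (L1L2_Alb) in iBECs. L1L2_Alb libraries were thus at 0.205 to 0.478 times their control, and the lowest values were those of iHPs. *Fn1* passed in 11 of 14 alternative fits, with adjusted p from 0.00758 to 0.110. Its exons share bases with those of *Apol7d* on the other strand. *Fn1* was 2.42 to 6.10 times *Vim* in the control libraries and 0.344 to 1.51 times in those labelled L1L2_Alb, and *Vim* was 4.84 to 13.5 times *Cdh1* in controls against 9.64 to 23.8 times.

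**Figure D3:**
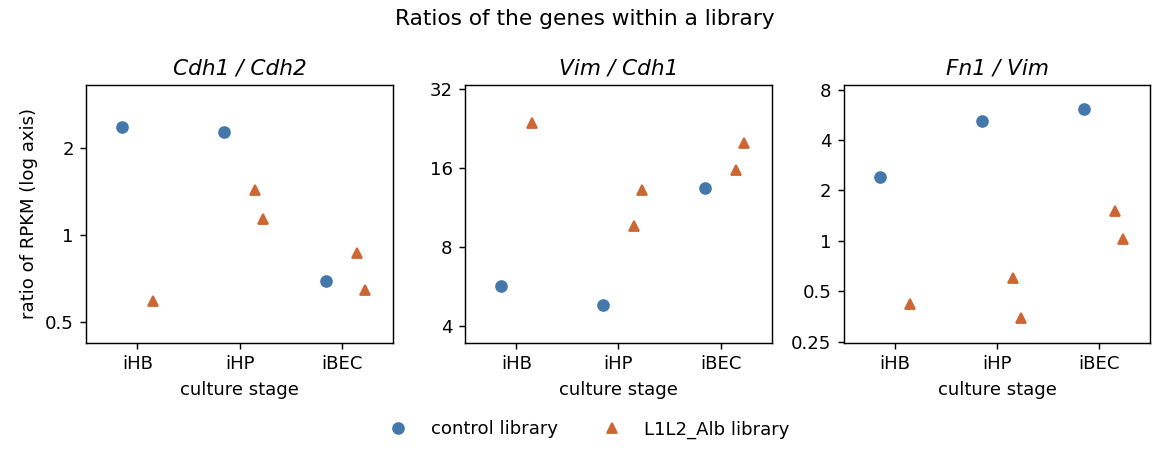
Ratios of RPKM within each library on log axes, by culture stage; circles are control and triangles L1L2_Alb libraries. The control iBEC library lies at 0.689 for *Cdh1* over *Cdh2*, between both L1L2_Alb iBEC libraries, whereas *Fn1* over *Vim* separates the genotypes in every stage.

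Between the culture stages none of the 9 genes passed in any of the 3 contrasts, which were fitted over both genotypes. From iHB to iHP limma called 0 of all genes tested (0%), with 1158 at an unadjusted p under 0.05, and of the 9 genes *Zeb2* alone was among these, at -0.75 ± 0.29 (adjusted p = 0.524). From iHB to iBEC 5.72% of all genes and 0 of the 9 were called, with *Cdh1* at -1.08 ± 0.34 (adjusted p = 0.112) and *Vim* at -0.81 ± 0.29 (adjusted p = 0.148). From iHP to iBEC 4.12% of all genes and 0 of the 9 were called. The nearest were *Twist1*, at 1.03 ± 0.25 (adjusted p = 0.0596), and *Cdh1*, at -1.17 ± 0.30 (adjusted p = 0.0716), and *Snai1* was at 1.20 ± 0.40 (adjusted p = 0.132). At an unadjusted p under 0.05, 4 of the 9 genes were reached from iHB to iBEC, beside 3357 of all 13421, and 5 of 9 from iHP to iBEC, beside 2984. The call of *Twist1* passed with upper-quartile scaling (0.0410) and without the trend in eBayes (0.0439), over a range of 0.0410 to 0.192.

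Whether the genotype difference itself changed with the stage was tested by limma's moderated F test. It called 0 of 13421 genes, with 733 at an unadjusted p under 0.05, and none of the 9 genes was among these. *Cdh1* (adjusted p = 0.921) and *Snai1* (adjusted p = 0.997) came nearest by this test of limma. It had 2 residual degrees of freedom and 1 control library per stage, which limits the differences it can detect.

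Markers of other liver cells moved together with several of these genes. Fewer cells of a type and less RNA per cell cannot be told apart in such bulk libraries. The 12 fibroblast and stellate markers summed to 4082 RPKM (control) and 1237 RPKM (L1L2_Alb) in iHB, to 2463 RPKM (control), 657 and 1043 RPKM (L1L2_Alb) in iHPs, and to 2590 RPKM (control), 3590 and 1614 RPKM (L1L2_Alb) in iBECs. Most of that sum in every library was *Col1a1*, *Col1a2* and *Col3a1* RNA. They were at 1467, 1263 and 991 RPKM in control iHB and at 606, 404 and 173 RPKM in L1L2_Alb iHB. In iHB, with 1 L1L2_Alb library, 11 of the 12 markers were below the control. In iHP 9 of the 12 and in iBEC 1 of 12 were below it in both L1L2_Alb libraries. The count of iHB is thus not comparable with the others, and the share of all genes was not counted. *Reln* and *Tcf21* were at 0 RPKM in 2 L1L2_Alb libraries each. Limma called 0 of the 9 tested, with 6 at an unadjusted p under 0.05, which 3524 of all 13421 genes reached for genotype, and the median difference was -1.14. *Snai1* and *Snai2* were below the control, as was this sum, in the L1L2_Alb libraries of iHB and iHP, whereas in the second L1L2_Alb iBEC library *Snai1* was above its control and the sum below. Both genes were higher in the first than in the second L1L2_Alb iBEC library, as was *Dcn*, a proteoglycan of fibroblasts, at 309 against 71.4 RPKM. Of the same list, *Lrat* (0.679 against 1.46 RPKM) and *Tcf21* (0.819 against 1.23 RPKM) were lower in the first. The part of these cells in the levels of *Snai1* and *Snai2* was not tested. *Vim* and *Cdh2* were higher than the control in iHB and iHP libraries in which the fibroblast sum was lower. *Fn1* was lower than the control also in the first L1L2_Alb iBEC library, in which the fibroblast sum was higher. The part of fibroblasts and stellate cells in the levels of *Vim*, *Cdh2* and *Fn1* was not tested either.

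The 6 mesothelial markers summed to 112 to 272 RPKM in the controls and to 1064 to 3613 RPKM in the libraries labelled L1L2_Alb, in the same direction as *Vim* and *Cdh2*. Nearly all of that sum was *Msln*, a surface protein of mesothelium, at 103 to 261 RPKM in controls and 1032 to 3536 RPKM in L1L2_Alb libraries (log2 difference 3.61 ± 0.30, adjusted p = 0.000930). *Upk1b* rose by 3.01 ± 0.52 (adjusted p = 0.0119), and *Wt1*, the defining transcription factor of the fetal mesothelium, was at 3.96 to 18.8 RPKM over all libraries with 0.93 ± 0.26 (adjusted p = 0.0594). *Upk3b* had no common direction, at 1.86 against 3.59 RPKM in iHB, 2.97 against 1.65 and 0.691 RPKM in iHPs and 0.177 against 3.53 and 3.05 RPKM in iBECs. *Lrrn4* and *Gpm6a* were at 0 in 4 and 3 libraries and at most 0.334 and 0.154 RPKM elsewhere, and *Lrrn4* was below the control in the L1L2_Alb libraries of iHB and iHP. In all, 4 of 6 were tested and 2 of them called, and the part of mesothelial cells in *Vim* and *Cdh2* was not tested. Macrophage markers summed to 1365 to 2542 RPKM in controls and 871 to 3515 RPKM in L1L2_Alb libraries, with 0 of 7 tested called by limma and 1 at an unadjusted p under 0.05. Endothelial markers summed to 3.17 to 24.3 RPKM over all libraries, with 0 of 3 tested called by limma and 2 at an unadjusted p under 0.05. Erythroid markers summed to 3.16 to 110 RPKM in controls and 2.22 to 22.8 RPKM in L1L2_Alb libraries, and 1 of 2 tested fell, *Hbb-b1* (-2.09 ± 0.48, adjusted p = 0.0335).

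**Figure D4:**
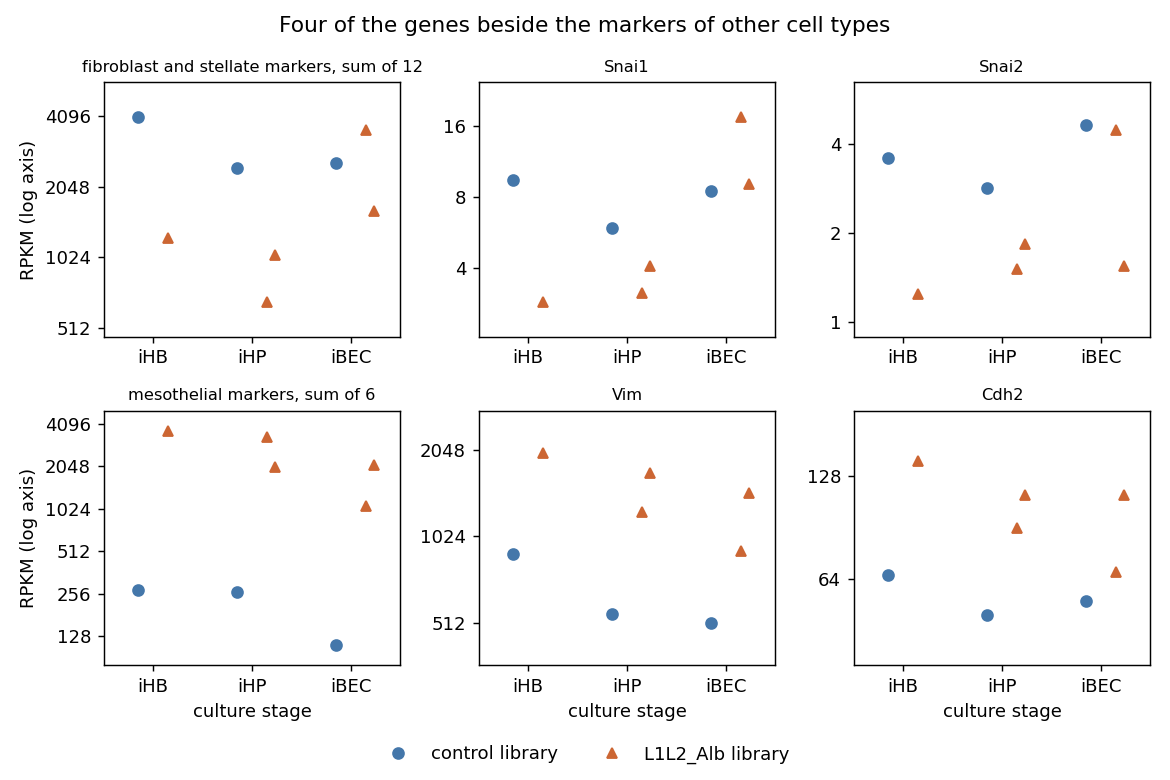
Summed RPKM of the 12 fibroblast and stellate markers with *Snai1* and *Snai2* (upper row), and of the 6 mesothelial markers with *Vim* and *Cdh2* (lower row), on log axes by culture stage; circles are control and triangles L1L2_Alb libraries. In the upper row the L1L2_Alb libraries of iHB and iHP lie below their control in all 3 panels, and in the lower row every L1L2_Alb library lies above its control.

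Of 8 hepatocyte markers limma called 5 as lower and 0 as higher, with a list median of -1.43, beside 3.37% of all genes tested called lower. Among the 5 were *Ttr* (-1.95 ± 0.25, adjusted p = 0.00445) and *Trf* (-1.82 ± 0.27, adjusted p = 0.00782). Differences above 0 were those of *Apoa1* (0.65 ± 0.40, adjusted p = 0.350) and *Afp* (0.07 ± 0.30, adjusted p = 0.914). *Apoa1* was at 2451 against 8670 RPKM in iHB, 4249 against 8351 and 6225 RPKM in iHPs, and 4404 against 4170 and 2889 RPKM in iBECs. *Fn1*, whose product hepatocytes also secrete, fell in the same libraries. The part of hepatocytes in its level was not tested. Among 5 simple keratins, the filaments of epithelium, *Krt7* (2.17 ± 0.27, adjusted p = 0.00422) and *Krt19* (1.31 ± 0.26, adjusted p = 0.0205) rose, as did *Vim* and 6.20% of all genes tested. All 5 were above the control in every L1L2_Alb library, and the share of all genes tested that were so was not counted. *Des* and *Nes*, the other 2 mesenchymal filament genes tested, had differences of -0.42 ± 0.57 and -0.21 ± 0.19 and did not pass (0 of 2 by limma, and 0 at an unadjusted p under 0.05).

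Genes that work beside the 9 changed in part. Of 5 other EMT transcription factors tested, from a list of 12, 1 fell, the E-protein gene *Tcf3* (-0.76 ± 0.20, adjusted p = 0.0486), and the list median was -0.24. Of 6 epithelial-state regulators tested, from a list of 12, limma called 0, with 1 at an unadjusted p under 0.05, *Klf4* (1.76 ± 0.46, adjusted p = 0.0517). Of the 4 catenins, which link cadherins to actin, limma called 0, with 1 at an unadjusted p under 0.05, *Ctnna1* (0.61 ± 0.18, adjusted p = 0.0673). Both genes were named after their values were seen. Among the other cadherins, 5 of 8 were tested and 2 fell, *Cdh17* of intestine and bile duct (-1.51 ± 0.36, adjusted p = 0.0367) and *Cdh6* (-1.13 ± 0.20, adjusted p = 0.0130), against the rise of *Cdh2*. The median of the 5 tested was -0.82, and *Cdh13* alone was above 0 (1.03 ± 0.41, adjusted p = 0.153).

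Of the 7 fibronectin-binding integrins tested, 1 rose, *Itgb6* (1.41 ± 0.27, adjusted p = 0.0193), whose product binds and activates latent TGF-beta, and the median was 0.49 while *Fn1* fell. Of 11 TGF-beta ligands, receptors and SMADs, 3 rose and 0 fell, with a median of 0.47. They were the co-receptor gene *Tgfbr3* (2.34 ± 0.44, adjusted p = 0.0175), the ligand gene *Tgfb2* (1.54 ± 0.19, adjusted p = 0.00373) and the feedback inhibitor gene *Smad7* (1.09 ± 0.26, adjusted p = 0.0379). *Tgfb2* was at 7.83 against 27.9 RPKM in iHB, at 5.07 against 17.6 and 20.1 RPKM in iHPs, and at 1.18 against 4.39 and 3.93 RPKM in iBECs. Of 11 mesenchymal effector genes tested, 0 rose and 1 fell, *Col5a1* (-1.46 ± 0.35, adjusted p = 0.0378), with a median of -0.45, below 0 as for *Fn1* and unlike *Vim*.

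**Figure D5:**
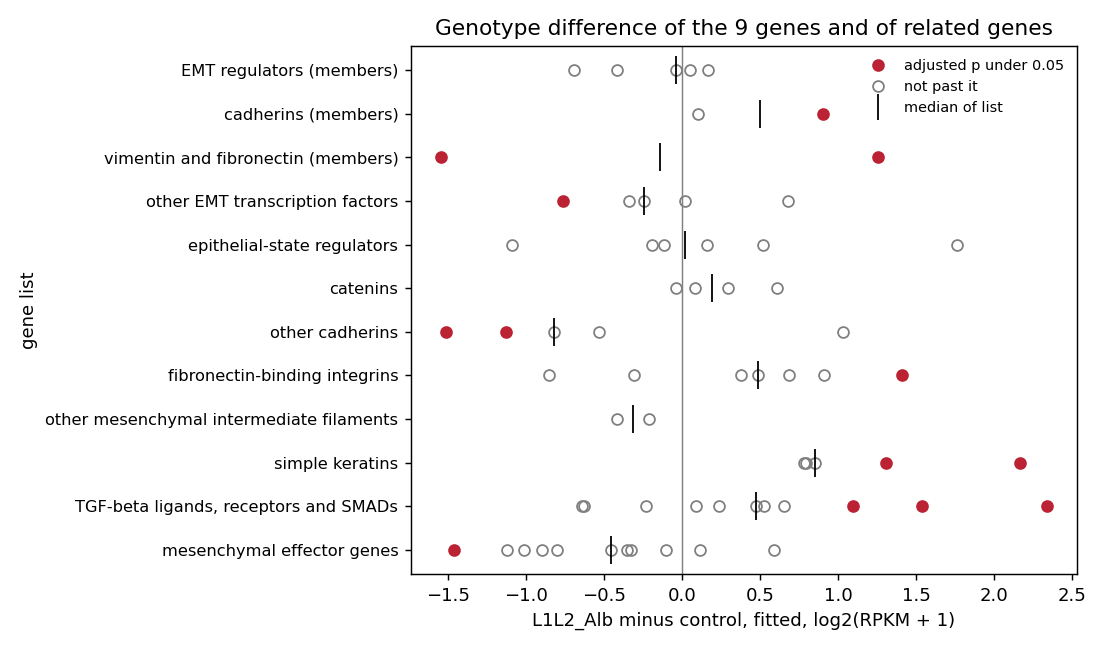
Fitted genotype differences on the log2(RPKM + 1) scale for the 9 genes (the upper 3 rows) and the tested genes of 9 related lists, 1 circle per gene; filled circles passed an adjusted p of 0.05 and vertical bars are list medians. The mesenchymal effector genes have a median of -0.45 and the simple keratins one of 0.85.

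Over the 8 libraries, the genes whose log2 levels were most like those of *Cdh1* among the 13420 others tested were *Arfgef1* (Pearson r = 0.989), *Zfp148* (0.980) and *Trappc8* (0.976). Those most like *Vim* were *Palm3* (0.988), the cell-cycle inhibitor gene *Cdkn2b* (0.982) and *Tmem184b* (0.982). These are the highest of many correlations over 8 libraries that share stages and genotypes, and are a description only.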

How the data were processed

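RNA libraries were made with a TruSeq kit without strand marking. The submitters' processing notes name Bowtie 0.12.2 and mm8, with no role. The authors deposited values in 1 table, here taken as RPKM because short genes change in whole-read steps; depth was read from those steps (RefSeq lengths, at least 5 genes up to 400 bases), and reads of a gene were counted as whole within 0.01, which 8 of the 9 genes met. Of 23471 entries, 4 with repeated symbols were left out, and 0 columns belonged to other samples. Reference sequence was GRCm38.p6, another build, so no positions of the files were used; overlaps came from GENCODE.

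Values were changed to log2(RPKM + 1), and 13421 genes with a mean of at least 1 entered a linear model of genotype and stage (limma 3.58.1, R 4.3.3, eBayes with a mean-variance trend), with 4 residual degrees of freedom. Benjamini-Hochberg adjusted, two-sided p under 0.05 was called a change. The fit was run on simulated data with independent noise and a genotype difference shared by all stages. That run did not cover genotype differences that vary between stages, or dependence between libraries. A difference between stages was tested by a moderated F test on 6 conditions. All 9 genes were named, with at most 4 called genes of each of 16 further lists by size of change, and the 3 genes most like *Cdh1* and *Vim*. Some genes of these lists that were not called were also named, outside that rule. The genes and lists were chosen with earlier results of these data known. The list of biliary markers is not reported here. A count model was not used, since the values are not counts. Alternatives were a pseudocount of 0.1, upper-quartile scaling, quantile normalization, no filter, a mean of at least 5, eBayes without trend, leaving out each library, and the 4 L1L2_Alb iHP and iBEC libraries alone.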

Additional observations from a re-analysis of the deposited data

Results flagged for a closer look

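The L1L2_Alb libraries of 2 stages lay on opposite sides of their controls for 4 of the 9 genes, and the share of all genes tested that do so was not counted. The differences between stages below are of mean log2 differences, each stage having 1 control library, and the F test over the stages passed for none of these genes (adjusted p of 0.921 for *Cdh1*, 0.997 for *Snai1* and 1.00 for *Zeb1* and *Zeb2*).

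*Cdh1* was lower than the control in L1L2_Alb iHB (-0.88) and higher in iHPs (0.18 ± 0.01, SD, n = 2) and iBECs (0.76 ± 0.23, SD, n = 2), so that iHPs differed from iHBs by 1.06 and iBECs from iHBs by 1.64. Under quantile normalization the iHP value was -0.02, and the opposite directions of iHB and iHP were lost. *Snai1* was higher than the control in iBECs (0.53 ± 0.62, SD, n = 2) and lower in iHB (-1.44) and iHPs (-0.59 ± 0.22, SD, n = 2), a difference of 1.97 from iHB and of 1.12 from iHPs. *Zeb2* was higher than the control in iBECs (0.45 ± 0.26, SD, n = 2) and lower in iHB (-0.20) and iHPs (-0.42 ± 0.30, SD, n = 2), a difference of 0.65 from iHB and of 0.87 from iHPs. The median of all genes tested was -0.09 in iHB, -0.01 in iHPs and 0.25 in iBECs. *Zeb1* differed from iHB by 0.28 in iHPs and by 0.31 in iBECs, from an iHB value of -0.05 that became 0.20 under quantile normalization. The fibroblast marker sum, mostly collagen RNA, was below the control in iHB and iHPs and above it in 1 of 2 L1L2_Alb iBEC libraries. Its part in these patterns was not tested.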

How the results depend on the processing

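Over the 14 alternative fits of the genotype difference, *Vim* stayed above 0 (1.14 to 1.37), *Cdh2* above 0 (0.68 to 1.04) and *Fn1* below 0 (-1.78 to -1.22), but with no filter on low values 1 of the 9 genes was called (of 686 genes in all) in place of 3 (of 1284), and leaving out 1 library gave 0 to 3 of the 9 and 205 to 1695 genes in all. At an adjusted p of 0.1 the calls were 2215 for genotype, 12 from iHB to iHP, 1372 from iHB to iBEC and 1234 from iHP to iBEC. From iHB to iHP, 2 genes were called with upper-quartile scaling, 4 with a mean of at least 5 and 0 to 55 without 1 library. From iHB to iBEC, 492 were called with no filter in place of 768, and 99 to 1739 without 1 library; from iHP to iBEC, 211 with no filter in place of 553, and 156 to 987 without 1 library. Of the 9 genes, from iHP to iBEC in place of 0, 2 were called at an adjusted p of 0.1, 1 with upper-quartile scaling, 1 with eBayes without trend and 0 to 1 without 1 library (*Snai1* without control iBEC, *Cdh1* without either iHB library). Deviations of the L1L2_Alb iHP and iBEC libraries with the same title number had a correlation of -0.02, which cannot show whether the libraries were paired. In these 4 libraries alone, 457 genes and 0 of the 9 were called without a replicate block. With the replicate block, 911 genes and 1 of the 9, *Snai1*, were called. The causes were not tested. Of 81 values in single stages, 18 moved by more than the spread of a pair and 4 changed sign. Of 224 counts of called genes in the 16 lists, 153 were within 1.5 times the value reported, 54 were lower and 17 higher.

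The depth limits *Twist1*, and 1 control library per stage limits every statement on a single stage.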
